A study of Mus musculus with 8 samples.

Results

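The 43 genes described here act in the repair of damaged DNA and in the signalling that starts it. They were taken by name from the deposited expression table of mouse colonic crypts, which holds 14247 genes, and all 43 were present in it. By role they comprised 10 genes of nucleotide excision repair, 12 of base excision, single-strand break and direct repair, 3 of mismatch repair, 5 of end joining, 7 of homologous recombination and crosslink repair, and 6 of damage signalling. Each of the 43 had a mean of at least 10 normalised counts and was tested with the 13503 genes above that limit. A normalised count is the number of reads of a gene divided by the size factor of its library, a number that puts the libraries on a common scale.

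The crypts came from wild-type (WT) mice collected every 6 h, at zeitgeber times ZT0 (lights on), ZT6, ZT12 (lights off) and ZT18, with 2 libraries at each. By the methods of the study the mice were of the C57BL/6 strain, a few months old and littermates, and the crypts were scraped from the large intestine after EDTA and passed through a strainer. No knockout, transgene or treatment is named for these samples. The study collected them to ask whether apoptosis genes of the unchallenged epithelium follow a daily rhythm, and here a like question is put to the repair genes.

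Cells meet each kind of DNA lesion with a different set of proteins. Nucleotide excision repair recognises bulky damage such as ultraviolet photoproducts, opens the helix and cuts out the damaged stretch. Base excision repair starts with a glycosylase that removes a single altered base, after which an endonuclease, a polymerase and a ligase restore the strand. Mismatch repair corrects errors of replication, and its loss is a well-known cause of tumours of the colon. Broken ends are either joined directly or repaired by recombination with the sister chromatid, which is available only after replication. The kinases ATM and ATR sense breaks and stalled forks and pass the signal to CHEK2 and CHEK1. The clock is linked to this machinery at several points: Xpa, the damage-verifying factor of nucleotide excision repair, is a known clock-controlled gene in liver, and the heterodimer of BMAL1 and CLOCK activates genes through the E-box, a motif of the letters CACGTG. In the crypt, stem and transit-amplifying cells divide at a high rate, so transcripts tied to replication are also part of what a crypt library measures.

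E-box matches are shown because they mark where the core clock factors could act on this set, and the values of these genes are given further on. The 250 bases before the RefSeq transcription start (build GRCm38.p6) were searched on both strands for CACGTG, which reads the same on either strand. Promoter entries were matched for 35 of the 43 genes, and 7 of these 35 (20%) held the motif, against 9.55% of the 10954 genes of the table that had an entry. No such motif stood in the windows of Xpa, Brca1 or Chek1. The matches are printed 5′ to 3′ on the plus strand, on which all 7 genes lie, with the motif in capitals.
Ercc6, chr14:32513401-32513454: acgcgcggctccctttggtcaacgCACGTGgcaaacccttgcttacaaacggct
Tdg, chr10:82629786-82629837: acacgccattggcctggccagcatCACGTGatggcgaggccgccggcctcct
Apex1, chr14:50924901-50924948: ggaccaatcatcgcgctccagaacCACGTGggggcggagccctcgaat
Lig3, chr11:82781064-82781108: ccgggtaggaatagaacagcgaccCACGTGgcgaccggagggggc
Parp1, chr1:180568818-180568871: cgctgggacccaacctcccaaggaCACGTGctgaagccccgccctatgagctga
Parp2, chr14:50807713-50807766: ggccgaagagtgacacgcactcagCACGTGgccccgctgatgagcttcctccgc
Xrcc5, chr1:72307199-72307252: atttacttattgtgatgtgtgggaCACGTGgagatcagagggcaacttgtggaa
The motif began 21 bases before the start in Lig3, 24 in Apex1, 28 in Tdg, 49 in Parp1, 96 in Ercc6, 179 in Parp2 and 198 in Xrcc5. Of the 7 genes, 5 belong to base excision and single-strand break repair, and the others are Ercc6 of transcription-coupled repair and Xrcc5, the Ku80 subunit of end joining. A match of letters is a description of the window and not evidence of binding.

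Depth and composition of the libraries bear on all values below. The smallest library, ZT12 replicate 2, held 14722342 reads and the largest, ZT18 replicate 1, held 25159440, and the mitochondrial genome took between 6.68% and 22.2% of the counts. Log2 values of the tested genes correlated at 0.919 to 0.975 between libraries of a time point and at 0.895 to 0.960 between time points. The 10 epithelial markers summed to 298017 to 405489 normalised counts in every library. The 6 smooth muscle markers in the table summed to 1107 and 5106 at ZT12, the higher value in replicate 1, and to between 448 and 1025 elsewhere, where Des, Actg2, Cnn1 and Acta2 were each at 0 in some library. The 6 markers of B and plasma cells summed to 1953 in ZT0 replicate 2 and to 93.4 in ZT0 replicate 1. ZT12 replicate 1 and ZT0 replicate 2 therefore stood apart in their content of other cells, and the counts below were repeated without both. Whether the libraries of a time point came from separate mice is not given in the labels, and the study's figure captions count more mice at a time point than there are libraries here, so the p-values measure the spread between these libraries. In bulk RNA, fewer cells of a type and less RNA per cell cannot be told apart.

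Repair genes were expressed at moderate to low levels in the crypts. Per kilobase of annotated exon, the median over the 43 genes was 45.5 normalised counts, against 81.0 over all genes tested, which placed it at the 36.9th percentile. Ddb1, a subunit of the ubiquitin ligase that recognises ultraviolet damage, was the highest at 644 normalised counts per kb, and Brca2, a gene of homologous recombination, the lowest at 6.43. Among the nucleotide excision genes Ercc6 had the lowest level at 27.2 normalised counts per kb. Within base excision and direct repair the levels per kb ran from 12.2 for Apex1, the abasic site endonuclease, to 130 for Tdg, the thymine glycosylase. In mismatch repair Msh6, a partner in the mismatch sensor, reached 103 normalised counts per kb and Pms2 16.6. End joining ran from 25.6 normalised counts per kb for Prkdc, the catalytic subunit of the DNA-dependent kinase, to 129 for Xrcc5. Recombination genes were low except for Nbn at 124 and Rad50 at 95.8 normalised counts per kb, which encode parts of the break sensor. Mre11a, which also belongs to that sensor, stood at 47.8 and Fancd2, the crosslink repair factor, at 9.51. Of the signalling genes, Gadd45a, a stress-induced growth arrest gene, was the highest at 311 normalised counts per kb and the kinase Atr the lowest at 9.03. These levels depend on the annotated exon length, which in Atr covers 23629 bases.

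By median, the repair genes varied over the day about as much as all genes tested. From the lowest to the highest of the 8 libraries a repair gene differed by a median of 1.97-fold, with a range from 1.28-fold for Rad50 to 13.5-fold for Apex1. The median SD between libraries of a time point was 0.29 on the log2 scale, and the median of the largest difference between time points was 0.47 on the log2 scale; over all genes tested the corresponding medians were 0.29 and 0.50. When a 24 h cosine was fitted to each gene with limma, 0 of the 43 genes passed an adjusted p (Benjamini-Hochberg over all genes) of 0.05, against 0.118% of the genes tested. At an unadjusted p under 0.05 there were 6 repair genes (14%), against 9.15% of the genes tested: Polb, Chek1, Brca1, Apex1, Xrcc1 and Chek2. EdgeR and DESeq2 each called 0 repair genes, against 0.0889% and 1.36% of the genes tested, and each had 6 at that unadjusted level. For edgeR and DESeq2 the share of the genes tested at an unadjusted p is not given here or below. The smallest adjusted p of a repair gene over every test and setting was 0.0856, for Polb in the DESeq2 cosine fit. For comparison, in the same limma fit the clock output gene Dbp had an adjusted p of 4.0e-05 at an amplitude of 3.07 (log2, from mean to peak), and Arntl, which encodes BMAL1, an adjusted p of 0.0831 at 0.92.

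**Figure D1:**
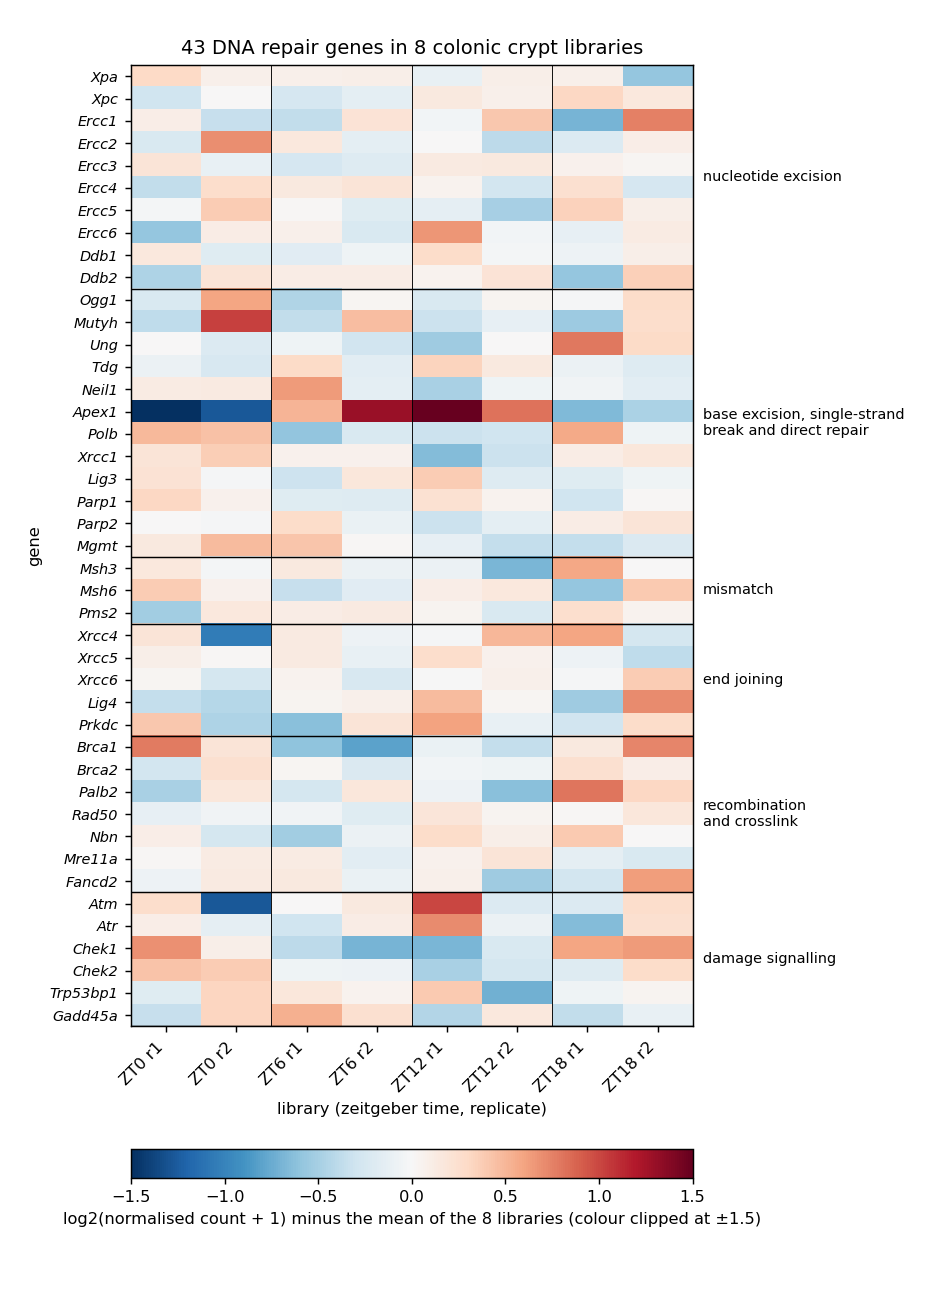
Deviation of each of the 43 repair genes (vertical axis, grouped by role) from its own mean over the 8 libraries (horizontal axis, 2 replicates per time point), as log2(normalised count + 1), with colours clipped at 1.5 in either direction. Apex1 has the widest range, 13.5-fold from lowest to highest library, whereas the median gene spans 1.97-fold.

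Most genes at the top of the cosine ranking, though not Apex1, shared a time of day. Of the 6 genes with an unadjusted p under 0.05, 5 had a fitted peak between 18 and 24 h, and these 5 are 11.6% of the repair genes, against 2.58% of the genes tested with such a p and peak. In Polb, Xrcc1, Brca1 and Chek1 every library of ZT18 and ZT0 lay above every library of ZT6 and ZT12 (4 genes, 9.3%, against 2.64% of the genes tested). Both this split and the window of 18 to 24 h were chosen after the values were seen. The reverse split held for Apex1 (2.33%, against 2.73%).

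Polb encodes the gap-filling polymerase of base excision repair (chr8:22628126-22653435, minus strand). Its normalised counts were 562 and 547 at ZT0, then 266 and 342 at ZT6, 321 and 327 at ZT12, with 596 and 385 at ZT18 for replicates 1 and 2. All libraries of ZT0 and ZT18 were above those of ZT6 and ZT12, with the ZT18 libraries further from each other (490.8 ± 149, SD, n = 2) than those of ZT12 (324.3 ± 4.44). The fitted amplitude was 0.51 ± 0.12 (SE, log2) with a peak at 21.3 h, and the cosine test of limma gave an unadjusted p of 0.00704 and an adjusted p of 0.415. ZT12 was lower than ZT0 by a log2 fold change of -0.77 ± 0.25 (SE; limma adjusted p = 0.399).

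Chek1 encodes the effector kinase of the replication checkpoint (chr9:36708482-36727065, minus strand). It was measured at 149 and 97.9 normalised counts at ZT0, then 70.2 and 56.6 at ZT6, 57.1 and 78.4 at ZT12, with 139 and 145 at ZT18. The ZT18 libraries were close together and lay above all libraries of ZT6 and ZT12, as did both ZT0 libraries. The cosine amplitude was 0.72 ± 0.18 (SE, log2) with a peak at 20.4 h (limma unadjusted p = 0.00768, adjusted p = 0.420). The ZT12 over ZT0 log2 fold change was -0.84 ± 0.37 (SE; limma adjusted p = 0.501), and that of ZT18 over ZT6 was 1.16 ± 0.37 (limma adjusted p = 0.641).

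Brca1 encodes the ubiquitin ligase that directs breaks toward recombination (chr11:101488764-101551955, minus strand). Its normalised counts were 226 and 150.2 at ZT0, then 86.2 and 75.1 at ZT6, 123 and 103 at ZT12, with 145 and 218 at ZT18. ZT6 held the lowest values and did not overlap with any other time point, while ZT0 and ZT18 overlapped with each other. The amplitude was 0.67 ± 0.17 (SE, log2) with a peak at 20.1 h (limma unadjusted p = 0.0103, adjusted p = 0.440). Its log2 fold change was -0.71 ± 0.35 for ZT12 over ZT0 (SE; limma adjusted p = 0.526) and 1.14 ± 0.35 for ZT18 over ZT6 (limma adjusted p = 0.634).

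Xrcc1, the scaffold of single-strand break repair, and Chek2, the effector kinase downstream of ATM, had their lowest values at ZT12. Xrcc1, singled out after its values were seen, had 437 and 497 normalised counts at ZT0, then 400.4 and 401 at ZT6, 244 and 306 at ZT12, with 413 and 432 at ZT18. Neither ZT12 library of Xrcc1 overlapped with any other library. Its amplitude was 0.39 ± 0.11 (SE, log2; peak 23.6 h; limma adjusted p = 0.483), and its ZT12 over ZT0 log2 fold change was -0.77 ± 0.21 (SE; limma adjusted p = 0.351). Chek2 (chr5:110839979-110874145, plus strand) had 249 and 241 normalised counts at ZT0, then 176 and 175 at ZT6, 131 and 153 at ZT12, with 161 and 224 at ZT18. The ZT0 libraries of Chek2 were above the other 6, and the ZT18 libraries spanned the values of ZT6. Its amplitude was 0.40 ± 0.13 (SE, log2; peak 23.5 h; limma adjusted p = 0.520), with a log2 fold change of -0.78 ± 0.27 from ZT0 to ZT12 (SE; limma adjusted p = 0.420). In the rank test in the manner of JTK, which ranks the 8 values and sets them beside cosine patterns, Xrcc1 and Chek2 had the smallest p this test gave, 0.0190 by exact enumeration within a gene. Such a p was under 0.05 for 2 repair genes (4.65%) and for 2.06% of the genes tested. After adjustment 0 genes passed, and the smallest adjusted p of the rank test over all genes was 0.878. Dbp had the same rank test p of 0.0190 and that adjusted p. With 8 values this test could not call even Dbp, so its 0 does not bear on the repair genes.

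**Figure D2:**
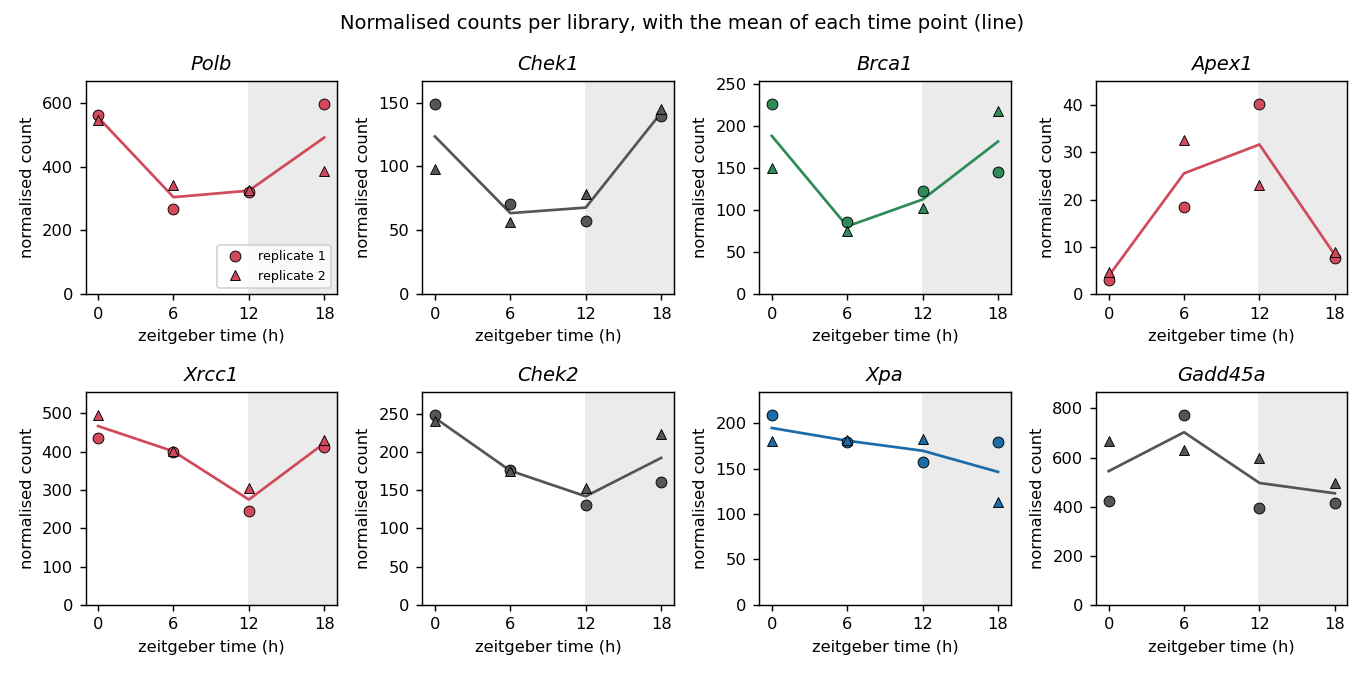
Normalised counts (vertical axis, from 0) of 8 repair genes by zeitgeber time (horizontal axis, h); circles and triangles are replicates 1 and 2, lines join the means of the 2 libraries and grey marks the dark phase. Polb, Chek1 and Brca1 are lower at ZT6 and ZT12 than at ZT0 and ZT18 in all libraries, Apex1 is higher there, and the ZT12 libraries of Xrcc1 lie below all others.

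Apex1 had the largest fitted amplitude among the repair genes and the fewest reads. The abasic site endonuclease that it encodes (chr14:50924968-50927139, plus strand) is a shared step of base excision repair. It was read 3 and 5 times at ZT0, then 15 and 30 times at ZT6, 43 and 20 times at ZT12, and 9 and 11 times at ZT18, which gave normalised counts of 2.98 and 4.66, 18.5 and 32.6, 40.3 and 23.1, and 7.69 and 8.85. ZT6 and ZT12 overlapped with each other and lay above ZT18, which lay above ZT0. The amplitude was 1.55 ± 0.42 (SE, log2) with a peak at 10.1 h (limma unadjusted p = 0.0142, adjusted p = 0.465). On the log2 scale ZT12 was above ZT0 by 2.73 ± 0.87 (SE; limma adjusted p = 0.388). As reads per size factor, 63 reads at ZT12 against 8 at ZT0 gave a ratio of 8.46 with an exact 95% interval of 4.04 to 20.4, which covers counting error only. In the GENCODE annotation 61.7% of the exon bases of Apex1 are shared with Pip4p1 on the opposite strand, which had 488 to 818 normalised counts and a fitted peak at 12.7 h. Whether reads were counted by strand is not stated, so reads of Apex1 and Pip4p1 cannot be told apart and the level of Apex1 is uncertain. In all, 23 of the 43 genes share exon bases with another gene; Apex1 alone shares more than 50% of them, followed by Ercc2 with 42.7%, Lig3 with 25.1% and Ddb2 with 23.8%.

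The fitted peaks of the repair genes were spread over the day. Only 6 of the 43 fits had an unadjusted p under 0.05 by limma, so most peaks are poorly defined and cannot decide whether the genes share a phase. Fitted peaks fell between 0 and 6 h for 9 genes, between 6 and 12 h for 7, between 12 and 18 h for 12 and between 18 and 24 h for 15 (34.9%), against 24.3% of all genes tested in the last of these windows. The median amplitude was 0.22 on the log2 scale for the repair genes and 0.23 for all genes tested. Lig3, the ligase of single-strand break repair, had the smallest amplitude at 0.02 and Apex1 the largest.

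**Figure D3:**
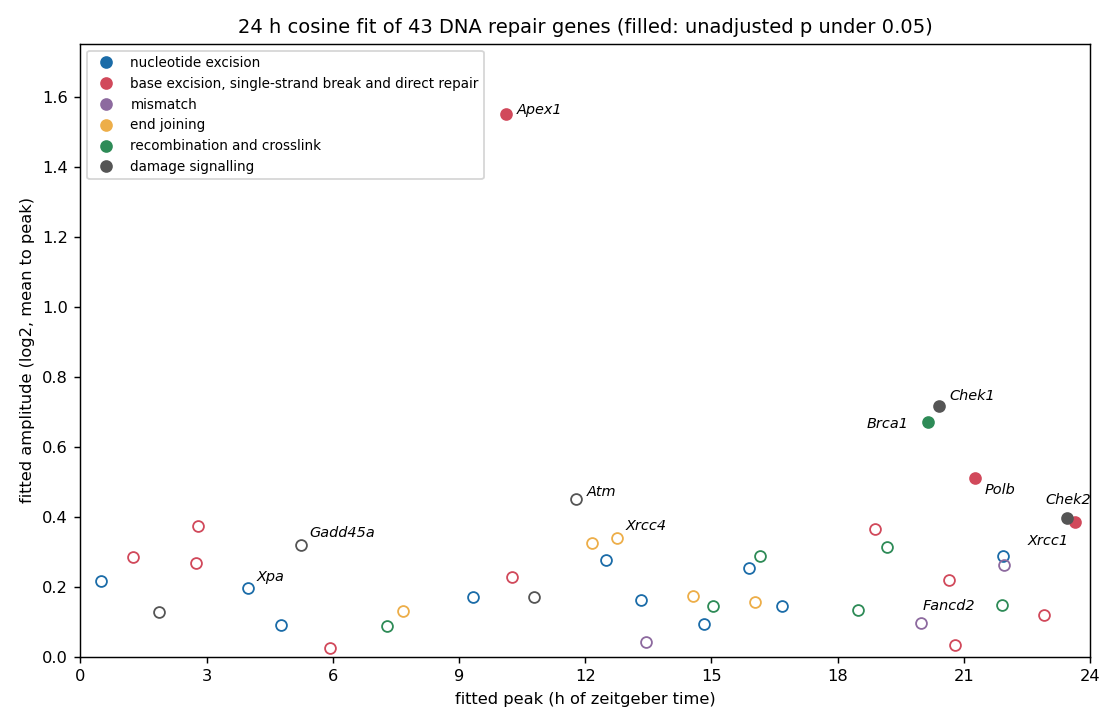
Fitted peak time (horizontal axis, h of zeitgeber time) and amplitude (vertical axis, log2 from mean to peak) of the 24 h cosine for each repair gene, coloured by role; filled points have an unadjusted p under 0.05. Of the 6 filled points, 5 lie between 18 and 24 h and Apex1 lies at 10.1 h with an amplitude of 1.55; 0 genes passed after adjustment.

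Genes of S phase and proliferation had their higher values at the same time points as Polb, Chek1 and Brca1. The list of 20 such genes summed to 12992 to 16081 normalised counts at ZT0, 9567 to 11229 at ZT6, 10397 to 10984 at ZT12 and 12205 to 12638 at ZT18, and none of the 20 was at 0 in a library. The sums of ZT0 and ZT18 were all above those of ZT6 and ZT12. Fitted peaks fell between 18 and 24 h for 14 of the 20, and 9 had an unadjusted cosine p under 0.05 by limma. After adjustment 0 passed, against 0.118% of the genes tested. Per library, the median deviation of these genes from their 8-library means, on the log2 scale, ran from -0.27 in ZT6 replicate 2 to 0.34 in ZT18 replicate 2, whereas that of the repair genes ran from -0.09 to 0.10. The part of proliferating cells in the values of Polb, Chek1 and Brca1 was not tested.

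**Figure D4:**
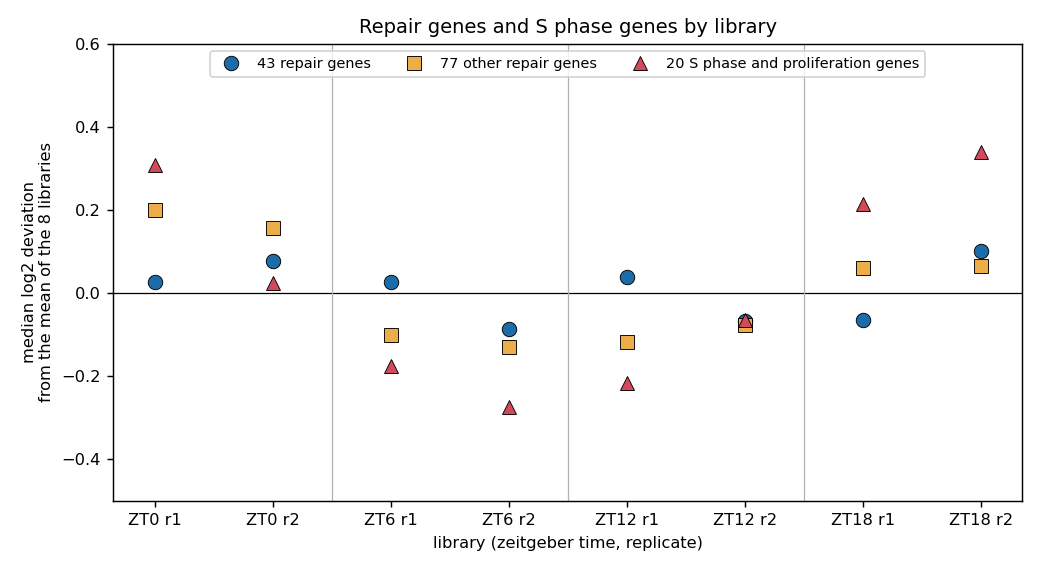
Median over genes of the log2 difference from each gene's 8-library mean (vertical axis) for the 43 repair genes, 77 other repair genes and 20 S phase genes in each library (horizontal axis). The S phase genes span -0.27 to 0.34 and are above 0 in the ZT0 and ZT18 libraries, and the 43 repair genes stay between -0.09 and 0.10.

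At lights off (ZT12) compared with lights on (ZT0), most base excision genes had lower values, without a gene of theirs that passed the test. Most of the 77 other repair genes and of the 20 S phase genes were lower too. In limma 0 of the 43 genes were called for ZT12 against ZT0, against 0.0667% of the genes tested, and edgeR and DESeq2 also called 0. At an unadjusted p under 0.05 limma gave 5 repair genes (11.6%, against 9.96% of the genes tested), and edgeR and DESeq2 gave 4 each. The 4 lower genes were Polb, Xrcc1, Chek1 and Chek2 (9.3%, against 4.95%) and the 1 higher gene was Apex1 (2.33%, against 5.01%). The libraries of ZT12 and ZT0 did not overlap for 15 repair genes (34.9%), against 41.1% of the genes tested. The median log2 fold change over the 43 genes was -0.05, beside 0.01 over all genes tested, with 19 genes higher and 24 lower. Without ZT12 replicate 1 and ZT0 replicate 2, limma again called 0 repair genes, 1 had an unadjusted p under 0.05 and the median was -0.14.

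Of the 12 genes of base excision, single-strand break and direct repair 10 had negative log2 fold changes at lights off, with a median of -0.25. Among the 10 was Lig3 at -0.00081, in effect unchanged. The number was 9 by edgeR and by DESeq2. It was 9 with a median of -0.17 without ZT12 replicate 1, and 8 with -0.21 without ZT0 replicate 2. Without both of these libraries it was 8 with -0.17. Over all genes tested, 6562 of 13503 were lower. Of the 77 other repair genes 64 were lower (median -0.32), and of the 20 S phase genes 17 (median -0.34), so the fall was not particular to this role. Per library, the median deviation of the 12 genes from their 8-library means was -0.28 and -0.10 at ZT12 and 0.07 and 0.10 at ZT0 (replicates 1 and 2, log2). The same libraries differed in other measures. The 7 genes that respond to tissue dissociation, among them Fos and Jun, deviated by -0.63 and -0.20 at ZT12 and by 0.10 and 0.20 at ZT0, with none at 0 and sums of 7639 to 11437 and of 12479 to 12805 normalised counts, and the mitochondrial genome took 6.68% and 7.85% of counts at ZT12 and 12.2% and 19.8% at ZT0. Their part in the values of the base excision genes was not tested. Besides Polb and Xrcc1, the libraries did not overlap for the glycosylase Neil1 (216 and 217 normalised counts at ZT0, 141 and 189 at ZT12), for the alkyltransferase Mgmt (64.6 and 81.1 at ZT0, 53.4 and 44.96 at ZT12) and for the strand break sensor Parp2 (420.2 and 411 at ZT0, 333 and 378 at ZT12). Tdg was the other gene of this role above its ZT0 values beside Apex1, with 652 and 582 normalised counts at ZT0 and 872 and 767 at ZT12. All 5 end joining genes had positive log2 fold changes, with a median of 0.27, but this rested on ZT0 replicate 2: without that library the median was 0.05, with 4 genes above 0 and 1 below. The largest fold change of this role was in Xrcc4, the scaffold of the end joining ligase (chr13:89774027-90089608, minus strand), at 0.67 ± 0.48 (SE; limma adjusted p = 0.660). Its normalised counts were 120.2 and 50.4 at ZT0, then 116 and 100.1 at ZT6, 104 and 149 at ZT12, with 159 and 87.7 at ZT18. ZT0 replicate 2 was its lowest library, and the fold change was 0.05 on the log2 scale without it. Lig4, the end joining ligase, had 146 and 139 normalised counts at ZT0 and 262 and 191 at ZT12 and did not overlap between them.

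**Figure D5:**
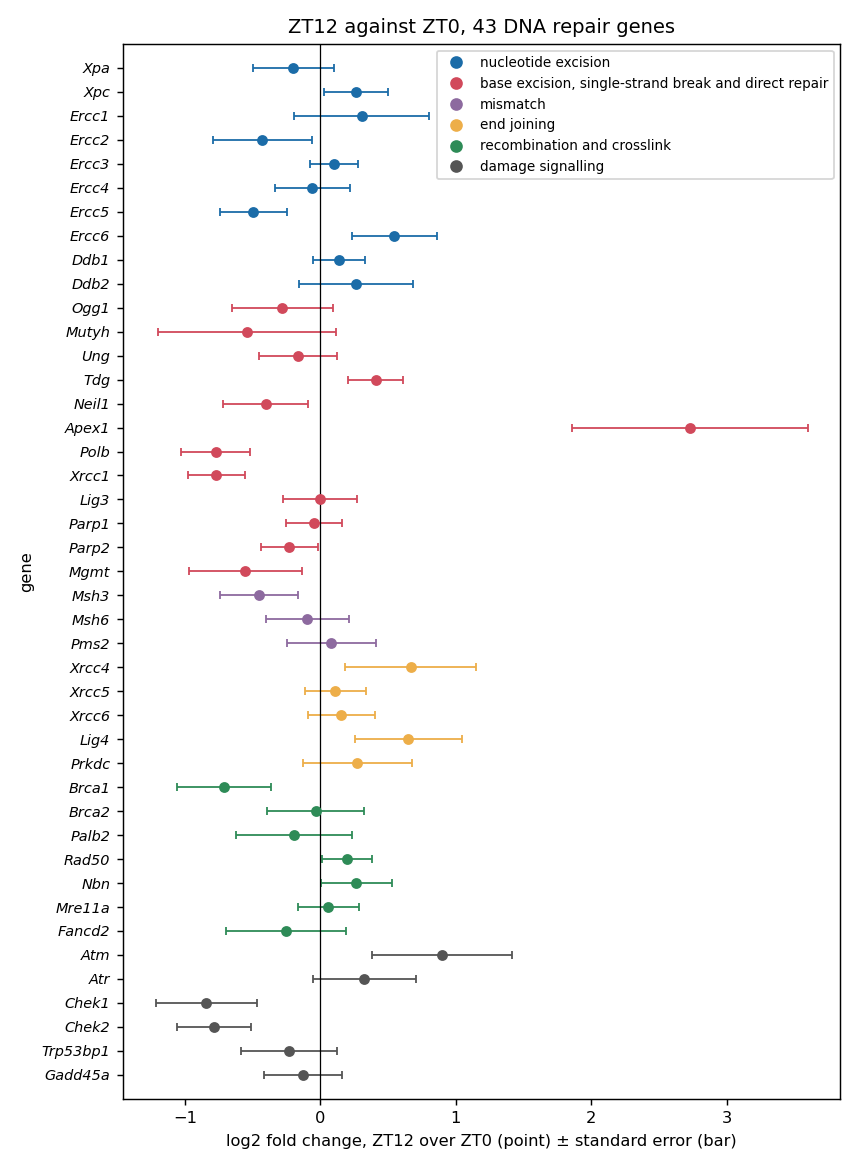
Log2 fold change of ZT12 over ZT0 (horizontal axis) for each repair gene (vertical axis, by role); points are limma estimates from 2 libraries per time point and bars are standard errors. The 5 end joining genes lie above 0, with a median of 0.27 that falls to 0.05 without ZT0 replicate 2. Of the 12 base excision genes 10 lie below 0, with Lig3 at -0.00081. Apex1 lies at 2.73, and 0 genes passed after adjustment.

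Between mid-day (ZT6) and mid-night (ZT18), most recombination genes had higher values at night, without a gene of theirs that passed the test. Most of the 77 other repair genes and of the 20 S phase genes were higher too. Limma called 0 of the 43 genes for ZT18 against ZT6 (0.0444% of the genes tested), as did edgeR and DESeq2. At an unadjusted p under 0.05 each of the 3 tools gave 4 repair genes (9.3%), against 6.71% of the genes tested by limma. Those of limma were Ung, Polb, Brca1 and Chek1, all higher at ZT18 (9.3%, against 3.22%). Libraries did not overlap for 17 repair genes (39.5%, against 38% of the genes tested). The median log2 fold change of the 43 genes was 0.07, beside -0.01 over all genes tested. Of the 7 recombination and crosslink genes 6 were higher, with a median log2 fold change of 0.26. Over all genes tested, 6540 of 13503 were higher. Of the 20 S phase genes 17 were higher (median 0.63), and of the 77 other repair genes 51 (median 0.20), so the rise was not particular to recombination. Palb2, which bridges BRCA1 and BRCA2, had 64.1 and 87.0 normalised counts at ZT6 and 135 and 95.7 at ZT18. Brca2 had 88.7 and 75.1 at ZT6 and 103 and 93.3 at ZT18, and Nbn had 214 and 290.5 at ZT6 and 406 and 310.5 at ZT18. None of these 3 genes overlapped between ZT6 and ZT18.

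Ung, the uracil glycosylase, had its highest values at ZT18. Named after its values were seen, it had 248 and 214 normalised counts at ZT0, then 235 and 202 at ZT6, 170.4 and 247 at ZT12, with 426 and 300.0 at ZT18. Both ZT18 libraries lay above the other 6. For ZT18 against ZT12, limma called 0 repair genes (0.0296% of the genes tested), as did edgeR and DESeq2. Unadjusted p-values under 0.05 were found for 4 repair genes by limma (9.3%, against 9.03%) and for 6 each by edgeR and DESeq2. The 4 genes of limma, all higher at ZT18 (against 4.32% of the genes tested), were Ung, Xrcc1, Chek1 and the mismatch sensor subunit Msh3, with 307 and 202 normalised counts at ZT12 and 489.6 and 327 at ZT18. ZT18 and ZT12 did not overlap for 19 repair genes (44.2%, against 36.4%).

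The remaining comparisons between time points also called 0 repair genes in limma, edgeR and DESeq2. For ZT6 against ZT0 limma called 0.0444% of the genes tested. Each tool had 4 repair genes at an unadjusted p under 0.05 (9.3%), against 4.13% of the genes tested by limma. In limma the 4 were Polb, Brca1 and Chek1 with lower values at ZT6 (6.98%, against 1.98%) and Apex1 with higher ones (2.33%, against 2.14%). Libraries of these times did not overlap for 10 repair genes (23.3%, against 37.6%). For ZT18 against ZT0 (0% called by limma) the count was 0 by limma and DESeq2 and 1 by edgeR, against 5.02% of the genes tested by limma, and 15 repair genes did not overlap (34.9%, against 27.5%). For ZT12 against ZT6 (0% called by limma), each tool had 1 such gene (2.33%), against 6.78% of the genes tested by limma. In limma it was Xrcc1, with the lower values at ZT12 (3.44% of the genes tested). Here too 15 repair genes did not overlap (34.9%, against 45.7%). The F-test of limma over the 4 time points called 0 repair genes (0.0889% of the genes tested), with 5 at an unadjusted p under 0.05 (11.6%, against 7.03%): Apex1, Polb, Xrcc1, Brca1 and Chek1. EdgeR and DESeq2 also called 0 in this test and had 5 such genes each. These comparisons share libraries and are not independent of each other.

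The median amplitude of the nucleotide excision genes, Xpa among them, was a little below that of all genes tested. Xpa (chr4:46155347-46196311, minus strand) had 209.6 and 180.0 normalised counts at ZT0, then 179.9 and 182 at ZT6, 157 and 182 at ZT12, with 179 and 113 at ZT18. Both ZT18 libraries lay below those of ZT0 and of ZT6, the higher of them by less than 1 normalised count, and the other time points overlapped. The amplitude of Xpa was 0.20 ± 0.15 (SE, log2) with a peak at 3.99 h (limma unadjusted p = 0.444, adjusted p = 0.794), and its ZT12 over ZT0 log2 fold change was -0.20 ± 0.30 (SE; limma adjusted p = 0.840). None of the 10 genes of this role had an unadjusted cosine p under 0.05 by limma, against 9.15% of the genes tested. Their median amplitude was 0.18 on the log2 scale, beside 0.23 over all genes tested. Ddb1 stayed between 3604 and 4978 normalised counts. Xpc, the lesion sensor of global genome repair, had 201 and 248 normalised counts at ZT0, then 208 and 223 at ZT6, 275 and 262 at ZT12, with 308 and 276 at ZT18, and its ZT12 and ZT18 libraries lay above those of ZT0 and ZT6. Its fitted amplitude was 0.25 on the log2 scale with a peak at 15.9 h and an unadjusted p of 0.121 by limma.

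The large signalling kinases were highest in 1 library. Atm (chr9:53439149-53536740, minus strand) had 359 and 123 normalised counts at ZT0, then 298 and 331 at ZT6, 597 and 258 at ZT12, with 257 and 356 at ZT18, so that the ZT0 and ZT12 libraries overlapped. As a log2 fold change, ZT12 over ZT0 was 0.90 ± 0.51 (SE; limma adjusted p = 0.577), and -0.47 without ZT12 replicate 1 and ZT0 replicate 2. Its relatives Atr, with 339 normalised counts, and Prkdc, with 495, were likewise highest in ZT12 replicate 1. This library held the highest value of 11 repair genes and the lowest value of 6. ZT18 replicate 1 held the highest value of 9 repair genes, ZT12 replicate 2 of 1 and ZT6 replicate 2 of 0. The same counts over all genes are not given here, so whether 11 is unusual is open. ZT12 replicate 1 was also the library with the most smooth muscle and fibroblast transcripts, whose lists deviated by a median of 6.24 and 4.84 on the log2 scale; their part in the values of Atm was not tested.

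Gadd45a and Fancd2 had no unadjusted p under 0.05 in any limma test. Gadd45a (chr6:67035096-67037457, minus strand) had 421 and 668 normalised counts at ZT0, then 775 and 631 at ZT6, 394 and 598 at ZT12, with 413 and 495 at ZT18. Its highest value was in ZT6 replicate 1, and both ZT6 libraries lay above those of ZT12 and ZT18. The amplitude was 0.32 ± 0.14 (SE, log2) peaking at 5.24 h (limma adjusted p = 0.611), and the log2 fold change of -0.13 ± 0.29 from ZT0 to ZT12 (SE; limma adjusted p = 0.899) turned to 0.21 without ZT0 replicate 2 and to 0.17 without ZT12 replicate 1. Fancd2 (chr6:113531682-113597017, plus strand) had 69.5 and 81.1 normalised counts at ZT0, then 81.3 and 68.5 at ZT6, 77.7 and 50.7 at ZT12, with 60.7 and 114 at ZT18. Its ZT18 libraries held both the second lowest and the highest value. The amplitude of Fancd2 was 0.15 ± 0.21 (SE, log2; limma adjusted p = 0.927), and its ZT12 over ZT0 log2 fold change was -0.25 ± 0.44 (SE; limma adjusted p = 0.865) and 0.05 without ZT12 replicate 2.

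The 7 genes with the E-box sequences shown above had a smaller median amplitude than the other repair genes. Their median cosine amplitude was 0.13 on the log2 scale, against 0.27 for the 28 repair genes with a promoter entry and no E-box. An unadjusted cosine p under 0.05 by limma was found for 1 of the 7, Apex1, and for 4 of the 28. Fitted peaks lay at 5.94 h in Lig3, 7.67 h in Xrcc5, 10.1 h in Apex1, 10.3 h in Tdg, 12.5 h in Ercc6, 20.8 h in Parp1 and 22.9 h in Parp2. Amplitudes, on the log2 scale, were 0.02 for Lig3, 0.03 for Parp1, 0.12 for Parp2, 0.13 for Xrcc5, 0.23 for Tdg, 0.28 for Ercc6 and 1.55 for Apex1, the largest of the 43 genes. The unadjusted cosine p of limma was 0.984 in Lig3, 0.962 in Parp1, 0.595 in Parp2 and 0.548 in Xrcc5. It was 0.232 in Ercc6 and 0.117 in Tdg. The peaks of Lig3, Parp1, Parp2, Xrcc5, Ercc6 and Tdg are therefore poorly defined. The peak of Apex1 is uncertain too, with an adjusted p of 0.465 by limma and 3 to 43 reads a library. The reads of Apex1 also cannot be told apart from those of Pip4p1. Parp1, the main sensor of strand breaks, had 614 and 518 normalised counts at ZT0, then 435 and 431 at ZT6, 581 and 513 at ZT12, with 401 and 502 at ZT18. Ercc6 had 227 and 368 at ZT0, then 359.7 and 292 at ZT6, 538 and 332 at ZT12, with 314 and 370.0 at ZT18, with the highest value again in ZT12 replicate 1.

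A wider list of repair genes, some of which also act in replication and the cell cycle, held no called gene in the cosine fit. Of 79 further genes of DNA repair, 77 were in the table. In the cosine fit limma called 0 of them, against 0.118% of the genes tested. At an unadjusted p under 0.05 there were 9 (11.7%, against 9.15% of the genes tested). Rad54l, a motor protein of recombination, had an amplitude of 0.67 ± 0.15 (SE, log2; peak 22.4 h; limma adjusted p = 0.376), and Exo1, the exonuclease of mismatch repair and end resection, 0.87 ± 0.23 (peak 21.4 h; limma adjusted p = 0.440). Their median amplitude was 0.32 on the log2 scale, 46 of the 77 had a fitted peak between 18 and 24 h, and 64 had lower values at ZT12 than at ZT0 (median -0.32, log2 fold change). In the 43 genes the corresponding values were 0.22, 15 and 24, and a median of -0.05.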

How the data were processed

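RNA sequencing of WT mouse colonic crypts at ZT0, ZT6, ZT12 and ZT18, with 2 libraries per time point, was analysed. Per the study's methods the authors aligned reads with STAR to GRCm38 and used DESeq2; annotation, counting and strand use are not given in the sources used here. The labels and the methods name different library kits. The authors deposited 1 table whose library columns hold a signal, reads divided by a size factor per library (normalised count); whole reads were recovered from its steps (100% of values within 0.01 reads). Other deposited columns hold the authors' own comparison (log2 fold change, standard error, test score, p-value, adjusted p-value), as deposited by the authors, and were not used.

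With limma 3.58.1 in R 4.3.3 (lmFit, eBayes with trend), log2(normalised count + 1) was fitted for the 13503 genes whose mean reached 10, using a 24 h cosine, an F-test over 4 time points and 6 contrasts; fold changes on this scale understate those of low genes. Adjustment was by Benjamini-Hochberg over all genes, with calls under 0.05. The rank test used exact two-sided enumeration. Alternatives included edgeR 4.0.16 and DESeq2 1.42.0 on recovered reads. The code was tested on simulated data. Identifiers were matched to GENCODE M21 (14244 of 14247, all 43 repair genes). A count of 0 allows up to 3 reads, or 2.41 to 3.70 normalised counts by library, by counting error; the number of libraries, 2 at each time, also limits the precision.

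The repair genes, the other lists and the tests were chosen with earlier results of these data known. Full statistics are given for Xpa, the 4 repair genes with the smallest cosine p, the 3 largest rises and 3 largest falls from ZT0 to ZT12 by log2 fold change, Brca1, Fancd2 and Gadd45a; of the wider repair list, the 2 genes with the smallest cosine p are named.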

Additional observations from a re-analysis of the deposited data

How the results depend on the processing

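Under 22 alternatives (scaling by TMM, quantiles or reads outside the mitochondrial genome, pseudocounts of 0.1 and 5, no filter, a mean of at least 50, no variance trend, removal of a GC trend, edgeR, DESeq2, a replicate block, libraries left out, and the 4 libraries of a contrast alone), each count of called repair genes that could be computed was 0 (195 of 195). Repair genes with an unadjusted cosine p under 0.05 numbered 3 to 8. In all genes the cosine fit called 16 by limma, 12 by edgeR and 184 by DESeq2. The 195 counts include those of the rank test, which in the main setting called 0 of all genes tested, Dbp among them. The median log2 fold change of ZT12 against ZT0 was -0.14 without ZT12 replicate 1 and ZT0 replicate 2 together, and -0.0765 to 0.0836 with 1 library left out; that of ZT18 against ZT6 was -0.0465 (without ZT18 replicate 2) to 0.21 (without ZT18 replicate 1). Without ZT12 replicate 1 and ZT0 replicate 2, Atm had an amplitude of 0.24 and a ZT12 to ZT0 log2 fold change of -0.47, and Gadd45a one of 0.51. Gadd45a was at 0.0041 with the GC trend removed and at -0.46 to 0.21 with 1 library left out, and Fancd2 at -0.56 to 0.0484. With 1 library left out, Atm spanned amplitudes of 0.125 to 0.737 and fold changes of 0.13 to 1.67, lowest without ZT0 replicate 2 and highest without ZT0 replicate 1. The cause of these shifts was not tested. With the replicate number as a block, 0 repair genes were called in each test and 6 had an unadjusted cosine p under 0.05; deviations of same-numbered libraries correlated at -0.29 to 0.22, so the numbers were not taken to pair libraries. The spread between the 2 libraries of a time point, a median SD of 0.29 on the log2 scale for the repair genes, limits what could be called, and depth limits Apex1, with 3 to 43 reads a library.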

Other observations

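Targets of p53, which damage signalling induces, had a median amplitude close to that of the repair genes. Of 16 such genes limma called 0 in the cosine fit, against 0.118% of the genes tested. An unadjusted p under 0.05 was found for 2 (12.5%, against 9.15% of the genes tested). The median amplitude of the 16 genes was 0.21 on the log2 scale, beside 0.22 for the repair genes. Their summed normalised counts overlapped at all 4 time points, from 14917 to 17183 at ZT0, 16859 to 18076 at ZT6, 15143 to 18325 at ZT12 and 15120 to 18032 at ZT18.

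Other clock and cell cycle motifs were matched in few of the repair genes, at shares no lower than over the genes of the table. On both strands, the D-box (TTATGNAA) was matched in Gadd45a, 95 bases before its start, and the ROR element (TAGGTCA) in Chek2 and Atr. The letters CACGTT, a variant E-box, were matched in Tdg and Ddb1 (5.71%, against 5.28% of the genes of the table with an entry). An E2F site (TTTNGCGC) was matched in Ercc5 and Msh3, or 2 of 35 genes (5.71%), against 2.22% of the 10954 genes of the table with an entry. The ROR element was found in 5.71% of the repair genes, against 2.07%, and the D-box in 2.86%, against 2.46%.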
